A study of Mus musculus with 8 samples.

Results

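The 39 genes described here code for the enzymes that turn glucose into pyruvate and lactate, the carriers at both ends of that route, and the enzymes that take pyruvate into the citric acid cycle. They were named by symbol and found through their Ensembl IDs among the 55573 genes of the count table. All 39 were found, in 40 rows, because Aldoa has a second, weakly counted ID that was left out. By role there are 3 transporters, 10 genes of upper glycolysis, 7 of lower glycolysis and 2 lactate dehydrogenase subunits, together called the glycolysis list (22 genes). Pyruvate entry (5 genes) and the citric acid cycle (8 genes) form the mitochondrial list (13 genes). The 3 pyruvate dehydrogenase kinases and the cytosolic malate dehydrogenase Mdh1 were kept apart from both.

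Polyadenylated RNA of mouse embryonic stem cells (ESCs) was sequenced in bulk in 4 groups of 2 libraries. 2C::GFP+/SA cells carry the 2C::GFP reporter and were grown in a medium with 20% KnockOut serum replacement, 2 µM SGC0946, which inhibits the histone methyltransferase DOT1L, 2 µM AS8351, a histone demethylase inhibitor, and 10 ng/ml IL6/sIL-6R. 2C::GFP+/SGC cells carry the same reporter and had the same medium and 2 µM SGC0946, with 10 ng/ml LIF and without AS8351 and IL6/sIL-6R. 2C::GFP+ cells carry the reporter and were untreated, and mESC are untreated wild-type cells. The reporter is read in the 2-cell-like state, a rare state of ESC cultures that resembles the 2-cell embryo. No label tells if cells were sorted on GFP. For ESC culture the labels name a serum-replacement medium and an N2B27 medium with 2 inhibitors, both with 10 ng/ml LIF, without saying which of them mESC and 2C::GFP+ had. In every comparison with mESC or 2C::GFP+, the culture medium cannot be told apart from the group. 2C::GFP+/SA differs from 2C::GFP+/SGC in both AS8351 and the cytokine, and their shares cannot be told apart either. The 2 columns used for 2C::GFP+ are named after the serum replacement and match no label, so they were assigned by elimination, and every value of that group rests on this. Nothing says that the 2 libraries of a group came from separate cultures, so the spread behind each p-value may be technical.

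Glycolysis splits glucose to pyruvate in the cytosol, and lactate dehydrogenase regenerates its NAD+ by reducing pyruvate to lactate. Pyruvate that enters the mitochondrion is turned into acetyl-CoA by the pyruvate dehydrogenase complex, which the kinases Pdk1, Pdk2 and Pdk3 switch off by phosphorylation, and the citric acid cycle then oxidises it. Mouse ESCs draw strongly on glycolysis, whereas the earliest cleavage stages of the mouse embryo live on pyruvate and use little glucose.

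Library totals ran from 12299931 to 145810034 counts, and replicate 1 was 7.46 to 9.62 times deeper than replicate 2 in every group. Every member was counted in every library and passed the filter on low counts. Summed TPM (the deposited length-scaled transcript values) of 10 pluripotency markers lay between 9921 and 13759 in all 8 libraries, so the ESC label fits its markers. The 9 matched markers of the 2-cell-like state summed to 10840 and 5229 TPM in 2C::GFP+/SA cells, 2386 and 2486 in 2C::GFP+/SGC cells, 861 and 1221 in 2C::GFP+ cells, and 4.99 and 15.1 in mESC. The 2C::GFP+/SA libraries thus differ from each other on this marker set, and replicate 2 also had more primitive endoderm marker RNA (156 against 66.0 summed TPM over 8 markers). Primitive endoderm markers summed to 23.5 and 31.5 TPM in 2C::GFP+/SGC cells, 23.7 and 30.8 in 2C::GFP+ cells, and 72.0 and 116 in mESC. In mESC 68.6 and 111 TPM of this sum were Lama1, a laminin gene, and Gata6, Sox17, Pdgfra, Sox7, Dab2 and Foxa2 each lay under 1 TPM. In 2C::GFP+/SA against mESC 7 of the 8 rose, with a median log2 fold change of 4.34, where 25% of all tested genes rose. In 2C::GFP+/SA against 2C::GFP+, 7 of the 10 pluripotency markers fell and 1 rose. In the same comparison 8 of the 9 tested 2-cell-like markers, 7 of the 8 primitive endoderm markers and 4 of the 6 tested fibroblast markers rose and none fell. Of all tested genes 13.8% fell and 14.9% rose there. Trophoblast markers summed to 41.8 and 82.4 TPM in 2C::GFP+/SA cells, 61.4 and 77.7 in 2C::GFP+/SGC cells, 39.5 and 48.1 in 2C::GFP+ cells, and 120.1 and 157 in mESC over 8 genes. Fibroblast markers summed to at most 29.1 TPM over 10 genes in any library, and only 4 of the 10 reached 1 TPM anywhere. The part of these cell states in the results below was not tested. In bulk RNA, fewer cells that express a gene and less of its RNA per cell cannot be told apart.

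The glycolysis list took the smallest share of the RNA in 2C::GFP+/SA. Its 22 genes summed to 7389 and 8915 TPM in 2C::GFP+/SA cells, 10506 and 10313 in 2C::GFP+/SGC cells, 11020 and 10861 in 2C::GFP+ cells, and 12571 and 14198 in mESC. Both 2C::GFP+/SA libraries lie below the other 6, and both mESC libraries lie above them. The 13 mitochondrial genes summed to 1324 and 1465 TPM in 2C::GFP+/SA cells, 1683 and 1746 in 2C::GFP+/SGC cells, 1792 and 1815 in 2C::GFP+ cells, and 1611 and 1696 in mESC. In TPM these sums are again lowest in 2C::GFP+/SA, but here mESC overlaps 2C::GFP+/SGC. TPM sums depend on the scaling of each library, which limits comparisons between libraries. In the counts, the 13 genes had a median log2 fold change of only -0.08 in 2C::GFP+/SA against 2C::GFP+/SGC. Of these genes 8 were on the negative and 5 on the positive side, where 51.4% of all tested genes were negative. In CPM (counts scaled to library size), Gapdh had 3287 and 2789 in 2C::GFP+/SA, the reverse of its TPM order. The ratio of the sums was 5.58 and 6.09 in 2C::GFP+/SA cells, 6.24 and 5.91 in 2C::GFP+/SGC cells, 6.15 and 5.98 in 2C::GFP+ cells, and 7.80 and 8.37 in mESC. The 3 reporter groups overlap in this ratio, and mESC stands above them all. Without Gapdh, the largest single contributor, the ratio was 3.86 and 4.43 in 2C::GFP+/SA cells, 4.70 and 4.46 in 2C::GFP+/SGC cells, 4.44 and 4.37 in 2C::GFP+ cells, and 5.94 and 6.56 in mESC.

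**Figure D1:**
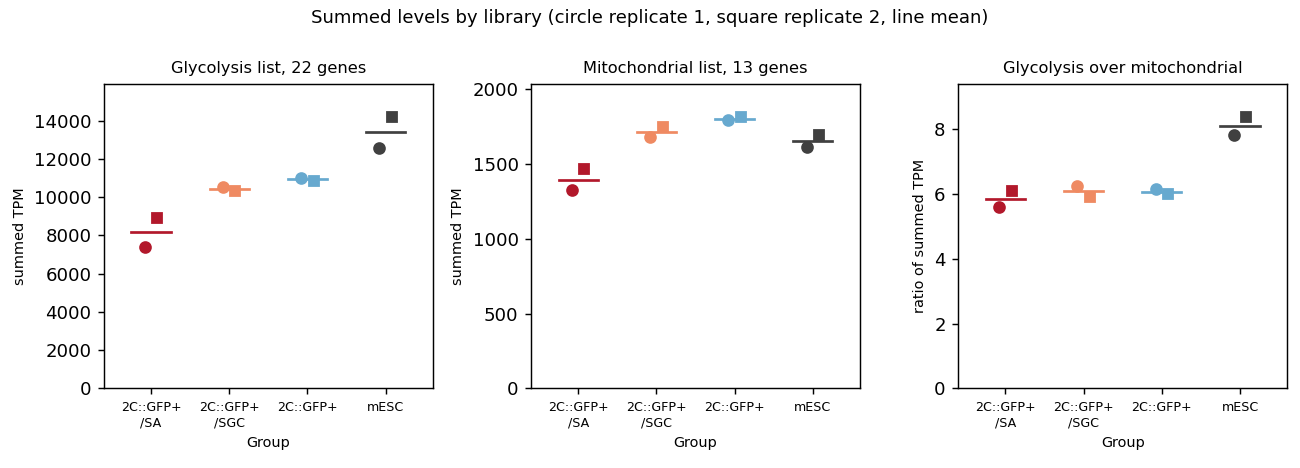
Summed TPM of the 22 glycolysis genes, of the 13 mitochondrial genes, and the ratio of the 2 sums (vertical axes, from 0) in the 4 groups, with a circle for replicate 1, a square for replicate 2 and a line at the mean. Both sums are lowest in 2C::GFP+/SA (7389 and 8915, and 1324 and 1465 TPM), whereas only mESC stands apart in the ratio (7.80 and 8.37).

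The groups also differed by step. The 10 upper glycolysis genes summed to 996 and 1204 TPM in 2C::GFP+/SA cells, 2374 and 2372 in 2C::GFP+/SGC cells, 2302 and 2486 in 2C::GFP+ cells, and 2855 and 3229 in mESC. The 7 lower glycolysis genes, from Gapdh to Pkm, summed to 4932 and 5837 TPM in 2C::GFP+/SA cells, 6004 and 5995 in 2C::GFP+/SGC cells, 6680 and 6371 in 2C::GFP+ cells, and 6738 and 7025 in mESC. The 2 lactate dehydrogenase genes summed to 559.6 and 827 TPM in 2C::GFP+/SA cells, 1177 and 950.2 in 2C::GFP+/SGC cells, 1290.2 and 1118 in 2C::GFP+ cells, and 2208 and 2792 in mESC. No test was run on these sums, since 2 against 2 libraries cannot reach significance in an exact permutation test.

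**Figure D2:**
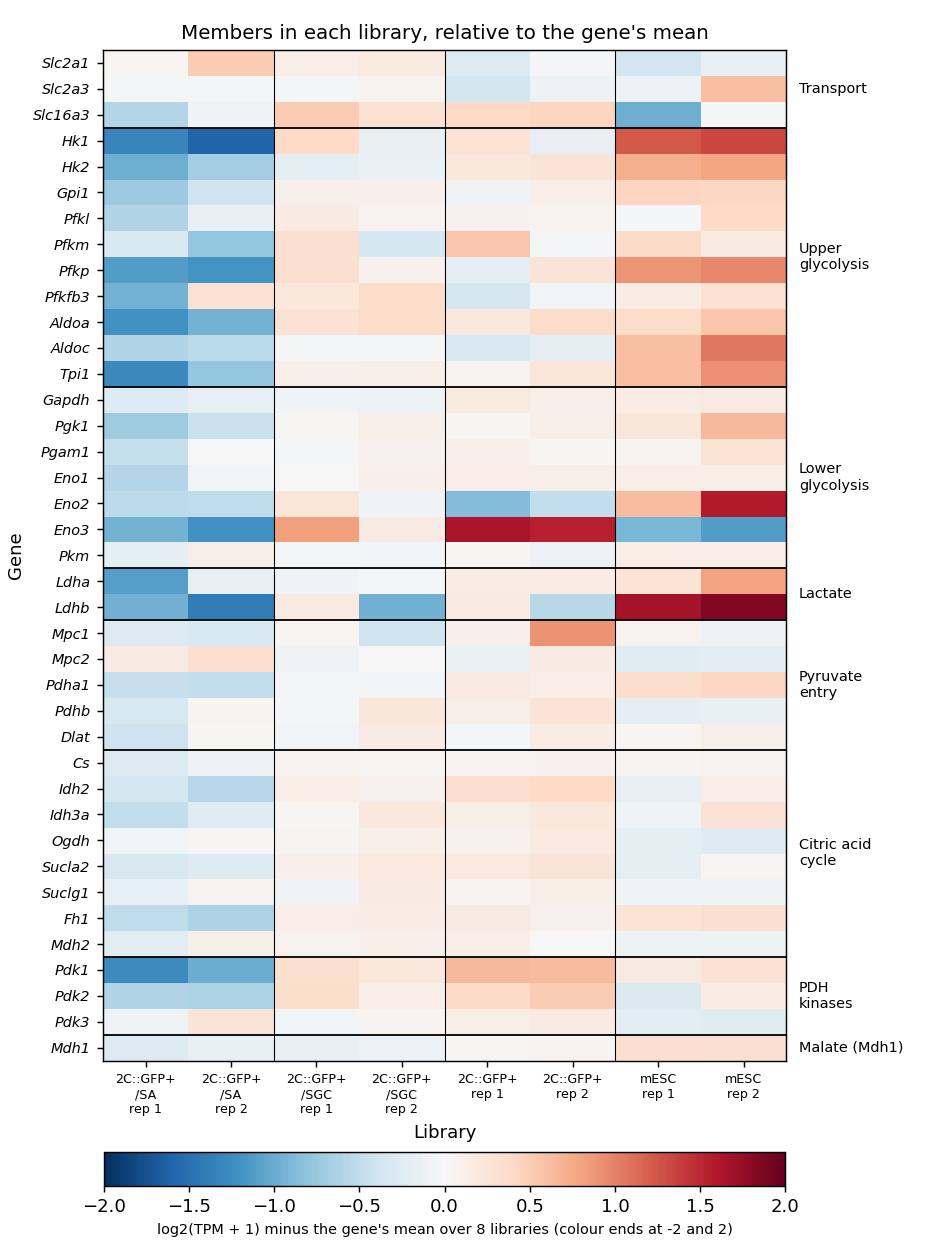
Each of the 39 members (rows, grouped by role) in each of the 8 libraries (columns), as log2(TPM + 1) minus the gene's mean over the 8 libraries, blue below and red above the mean. Most upper glycolysis rows are blue in both 2C::GFP+/SA libraries and red in both mESC libraries, and Eno3 is red in 2C::GFP+ cells and 2C::GFP+/SGC and blue in 2C::GFP+/SA and mESC.

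The combined treatment was set against untreated 2C::GFP+ cells first. Of the 39 members, 19 fell, 1 rose and 19 did not pass the test in 2C::GFP+/SA against 2C::GFP+ (edgeR quasi-likelihood F test, Benjamini-Hochberg adjusted p under 0.05 over all 20608 genes tested). Across all tested genes 28.7% were called, 13.8% lower and 14.9% higher. In the glycolysis list 12 of 22 fell and 1 rose, with a median log2 fold change of -0.57. In the mitochondrial list 5 of 13 fell and none rose, with a median of -0.27, beside a median of 0.01 over all tested genes. Another 2 of the 19 that fell are the kinases Pdk1 and Pdk2. The count depends on single libraries: 12 members fell without 2C::GFP+/SA replicate 2 and 9 without 2C::GFP+ replicate 1.

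Among the upper glycolysis genes, Aldoa, Tpi1, Hk2 and Pfkp fell most firmly. Aldoa (chr7:126795234-126800751), the aldolase that splits fructose bisphosphate, had 439.9 and 527 TPM in 2C::GFP+/SA cells, 1245 and 1308 in 2C::GFP+/SGC cells, 1185 and 1316 in 2C::GFP+ cells, and 1311 and 1502 in mESC. Both 2C::GFP+/SA values lie far below the other 6, which overlap. The log2 fold change of Aldoa against 2C::GFP+ was -1.32 ± 0.12 (SE), with an adjusted p of 9.84e-06. Tpi1 (chr6:124810586-124814296), which interconverts the triose phosphates that aldolase makes, had 131 and 188 TPM in 2C::GFP+/SA cells, 342 and 347 in 2C::GFP+/SGC cells, 337 and 379 in 2C::GFP+ cells, and 488 and 606 in mESC. It was lowest in 2C::GFP+/SA and highest in mESC without overlap, and fell by 1.13 ± 0.13 on the log2 scale against 2C::GFP+ (adjusted p = 3.64e-05). Hk2 (chr6:82725025-82774454), the inducible hexokinase that traps glucose in the cell, had 85.4 and 104 TPM in 2C::GFP+/SA cells, 149 and 153 in 2C::GFP+/SGC cells, 195 and 201 in 2C::GFP+ cells, and 278 and 291 in mESC. The 4 groups do not overlap and stand in this order, and Hk2 fell by 1.02 ± 0.12 (adjusted p = 4.76e-05). Pfkp (chr13:6579768-6648777), the platelet isoform of phosphofructokinase, had 34.4 and 32.3 TPM in 2C::GFP+/SA cells, 94.4 and 80.5 in 2C::GFP+/SGC cells, 65.9 and 90.6 in 2C::GFP+ cells, and 141 and 148 in mESC. Its 2C::GFP+/SGC and 2C::GFP+ values overlap, 2C::GFP+/SA lies below and mESC above, and it fell by 1.15 ± 0.16 (adjusted p = 0.000213). These calls held in all 13 alternative analyses.

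The other upper glycolysis genes moved less firmly. Hk1, the constitutive hexokinase, had 12.7 and 10.4 TPM in 2C::GFP+/SA cells, 44.2 and 29.8 in 2C::GFP+/SGC cells, 40.6 and 29.7 in 2C::GFP+ cells, and 79.0 and 86.0 in mESC. It is lowest in 2C::GFP+/SA without overlap, with a log2 fold change against 2C::GFP+ of -1.53 ± 0.29 (adjusted p = 0.00729), but replicate 1 exceeds replicate 2 in all 3 reporter groups. Its call ended without 2C::GFP+/SA replicate 2 (adjusted p = 0.0575) and without mESC replicate 2 (0.0645). Gpi1, which isomerises glucose 6-phosphate, had 131 and 164 TPM in 2C::GFP+/SA cells, 234 and 233 in 2C::GFP+/SGC cells, 208 and 238 in 2C::GFP+ cells, and 294 and 290.4 in mESC. It fell by 0.55 ± 0.12 (adjusted p = 0.00391), and this held in all 13 alternatives. Pfkl, the liver isoform of phosphofructokinase, passed the test narrowly (log2 fold change -0.39 ± 0.14, adjusted p = 0.0444) and lost its call in 9 of 13 alternatives, among them leaving out 2C::GFP+/SA replicate 1 (0.169), 2C::GFP+/SGC replicate 1 (0.0828) or 2 (0.0568), or 2C::GFP+ replicate 1 (0.253) or 2 (0.0612). The muscle isoform Pfkm (-0.75 ± 0.40), Aldoc (-0.27 ± 0.19) and Pfkfb3, whose product sets the level of the activator fructose 2,6-bisphosphate (-0.05 ± 0.33), did not pass. Pfkm had 64.9 and 47.1 TPM in 2C::GFP+/SA cells and 119.5 and 79.3 in 2C::GFP+, without overlap. In CPM the 2 groups overlap narrowly (75.78 and 43.7 against 126 and 75.62). Pfkfb3 had 2.14 and 6.49 TPM in the 2C::GFP+/SA libraries, which thus disagree about it.

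**Figure D3:**
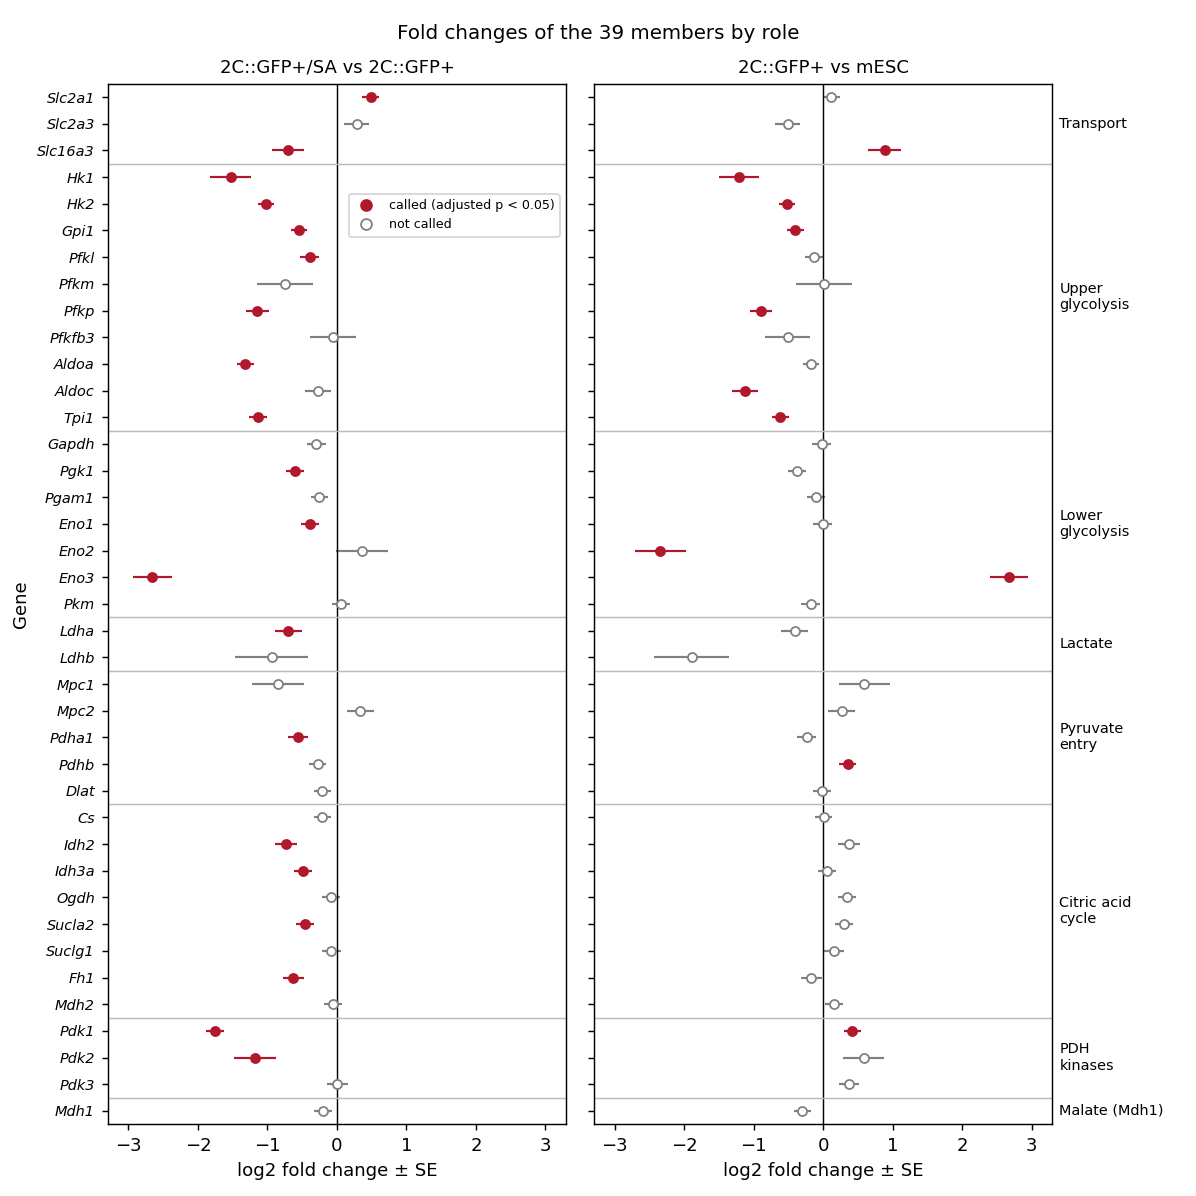
Log2 fold changes (horizontal axis, bars are SE) of the 39 members by role in 2C::GFP+/SA against 2C::GFP+ and in 2C::GFP+ against mESC, filled red where the adjusted p was under 0.05. On the left 19 members fell and 1 rose, and on the right 7 fell and 4 rose, with Eno3 at opposite ends of the 2 panels.

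Because several upper glycolysis genes fell together, the 250 bases before their RefSeq transcription starts were searched for ACGTG on both strands, the core of the element bound by hypoxia-inducible factors, and for CACGTG, the E-box that MYC family proteins bind and that contains the first motif. The windows come from RefSeq (GRCm38.p6) and matched 37 of the 39 members. The counts below use 250 bases before to 50 after each start. ACGTG was in at least 1 window of 13 of 21 glycolysis genes (61.9%) and of 2 of 12 mitochondrial genes (16.7%), against 21.8% of all 27025 genes with a window. By window, ACGTG was in 16 of 33 glycolysis windows (48.5%) and 7 of 18 mitochondrial windows (38.9%), against 19.6% of all windows. The mitochondrial share thus lies below that of all genes by gene and above it by window, and 6 of its 7 windows are starts of Ogdh. CACGTG was in 3 of the 21 and 1 of the 12, against 8.09% of all genes. Genes with several starts have several windows, and the shares were not matched for base composition. The 4 sequences shown first hold the motif in genes that fell in 2C::GFP+/SA, and the fifth, from Tpi1, is shown because that gene also fell and has no match. Each runs 5′ to 3′ up to the base before the start, with every ACGTG or its reverse complement CACGT in capitals; Aldoa is shown at the second and Ldha at the first of its listed starts.
Hk2 (chr6:82774455-82774704, minus strand): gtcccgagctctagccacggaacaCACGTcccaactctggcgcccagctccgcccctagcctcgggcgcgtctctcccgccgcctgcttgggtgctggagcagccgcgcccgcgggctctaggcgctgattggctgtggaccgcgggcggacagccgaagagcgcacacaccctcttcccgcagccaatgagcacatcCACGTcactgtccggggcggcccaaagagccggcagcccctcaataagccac
Aldoa (chr7:126799255-126799504, minus strand): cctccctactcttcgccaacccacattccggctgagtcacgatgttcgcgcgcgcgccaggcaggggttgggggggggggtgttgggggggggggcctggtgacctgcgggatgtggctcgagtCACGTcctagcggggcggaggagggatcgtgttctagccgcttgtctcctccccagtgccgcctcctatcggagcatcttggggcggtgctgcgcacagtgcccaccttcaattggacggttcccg
Pgk1 (chrX:106186850-106187099, plus strand): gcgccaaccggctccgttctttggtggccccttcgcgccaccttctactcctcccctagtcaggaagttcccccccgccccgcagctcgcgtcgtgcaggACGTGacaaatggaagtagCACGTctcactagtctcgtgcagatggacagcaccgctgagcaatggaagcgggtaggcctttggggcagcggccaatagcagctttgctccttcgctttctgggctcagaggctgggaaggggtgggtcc
Ldha (chr7:46845554-46845803, plus strand): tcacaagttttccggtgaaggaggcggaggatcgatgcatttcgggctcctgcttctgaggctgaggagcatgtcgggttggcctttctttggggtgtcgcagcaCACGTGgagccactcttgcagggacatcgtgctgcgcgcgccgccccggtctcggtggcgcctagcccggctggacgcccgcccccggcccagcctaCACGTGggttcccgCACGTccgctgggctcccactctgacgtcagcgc
Tpi1 (chr6:124814159-124814408, minus strand): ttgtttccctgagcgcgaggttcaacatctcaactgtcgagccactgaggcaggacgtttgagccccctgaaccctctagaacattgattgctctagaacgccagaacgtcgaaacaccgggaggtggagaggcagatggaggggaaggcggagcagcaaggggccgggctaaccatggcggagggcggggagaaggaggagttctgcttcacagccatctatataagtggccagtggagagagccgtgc
Hk2 and Pgk1 hold 2 such places, Aldoa 1 and Ldha 3, of which 2 are E-boxes. The motif was also in the 250 bases before a start of Slc2a1, which rose, and of Slc16a3 and Pdk2, which fell. Pdk3, Mdh1, Pgam1, Pfkfb3, Pfkm, Pkm, Ogdh and Pdhb, which did not pass the test, held it there too. Hk1, which fell, and Aldoc and Gapdh, which did not pass, held it only in the 50 bases after a start. It was in no window of Pdk1, Pfkp, Gpi1, Eno3, Pfkl, Eno1, Pdha1, Idh2, Sucla2 or Fh1, also with the 50 bases after the start. These genes fell as well, so the motif was both present and absent among the members that fell. A match is only these letters in this window.

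In lower glycolysis the phosphoglycerate kinase Pgk1 and 2 enolases fell, while the most abundant members did not pass the test. Pgk1, which makes the first ATP of the pathway, had 237 and 284 TPM in 2C::GFP+/SA cells, 395 and 419 in 2C::GFP+/SGC cells, 394 and 422 in 2C::GFP+ cells, and 452 and 604 in mESC. It was lower in both 2C::GFP+/SA libraries than in the other 6, by 0.60 ± 0.13 on the log2 scale against 2C::GFP+ (adjusted p = 0.00374), in all 13 alternatives. Eno3 (chr11:70657202-70662513), the muscle enolase, had 12.9 and 10.7 TPM in 2C::GFP+/SA cells, 46.6 and 29.3 in 2C::GFP+/SGC cells, 82.6 and 78.3 in 2C::GFP+ cells, and 13.4 and 11.5 in mESC. It is thus high only in the reporter cells without AS8351 and IL6/sIL-6R, and it fell by 2.66 ± 0.28 against 2C::GFP+ (adjusted p = 2.73e-05), in all 13 alternatives. Eno1, the main enolase of ESCs, was called lower (-0.39 ± 0.13, adjusted p = 0.0375) with 541 and 780.3 TPM in 2C::GFP+/SA cells and 894 and 877 in 2C::GFP+. Its call ended in 8 of 13 alternatives, among them leaving out 2C::GFP+/SA replicate 1 (0.143), 2C::GFP+/SGC replicate 1 (0.0752) or 2 (0.0591), 2C::GFP+ replicate 1 (0.235) or mESC replicate 1 (0.0671). Gapdh, the glyceraldehyde phosphate dehydrogenase, and Pkm, the pyruvate kinase, were called in none of the 5 comparisons: Gapdh had 2275 and 2429 TPM in 2C::GFP+/SA cells and 3067 and 2935 in 2C::GFP+, and Pkm had 1579 and 1938 in 2C::GFP+/SA cells and 1817 and 1655 in 2C::GFP+. Without 2C::GFP+/SA replicate 1, Gapdh was called lower in 2C::GFP+/SA than in 2C::GFP+ (adjusted p = 0.0394). Eno2, the neuronal enolase, and Pgam1, the phosphoglycerate mutase, did not pass either (0.36 ± 0.37 and -0.25 ± 0.13). Pgk1, Pgam1, Pkm, Eno1, Gapdh, Gpi1, Ldhb and Mpc1 share over 20% of their 31-base stretches with other genes or pseudogenes, and the treatment of reads with several matches is not given in the sources used here, so their counts are less certain. Among these genes, Eno1 is the only one whose top partner by shared stretches (Eno1b) is annotated as protein-coding.

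At the ends of the pathway the glucose importer Slc2a1 (GLUT1) rose. It had 339 and 471 TPM in 2C::GFP+/SA cells, 359 and 372 in 2C::GFP+/SGC cells, 271 and 323 in 2C::GFP+ cells, and 252 and 293 in mESC. The 2C::GFP+/SA and 2C::GFP+/SGC ranges overlap in TPM but not in CPM (416 and 458 against 355 and 358). Both groups lie above 2C::GFP+, and the rise against 2C::GFP+ was 0.49 ± 0.12 on the log2 scale (adjusted p = 0.00871). The call of Slc2a1 ended without 2C::GFP+ replicate 1. Slc2a3 (GLUT3) did not pass (0.28 ± 0.18), with 532.1 and 532.2 TPM in 2C::GFP+/SA cells and 416 and 501 in 2C::GFP+. The lactate exporter Slc16a3 (MCT4) was called lower (-0.70 ± 0.23, adjusted p = 0.0484) and lost the call without any 1 of the 6 reporter libraries, with adjusted p-values of 0.0850 to 0.237. Ldha, the main lactate-forming subunit, had 349 and 672 TPM in 2C::GFP+/SA cells and 832 and 839 in 2C::GFP+. Both treated values are lower, but they lie far apart, and the call (-0.70 ± 0.19, adjusted p = 0.0171) ended without 2C::GFP+/SA replicate 1 (0.0921) or 2C::GFP+ replicate 1 (0.125). Ldhb, the other subunit, did not pass (-0.94 ± 0.53).

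By the median log2 fold change in 2C::GFP+/SA against 2C::GFP+, the mitochondrial list moved less than the glycolysis list, but this did not hold at every step. The median was -0.89 for upper glycolysis, -0.82 for the lactate dehydrogenase genes, -0.30 for lower glycolysis and 0.28 for the transporters. It was -0.27 for pyruvate entry and -0.335 for the citric acid cycle. The ratio of the 2 summed TPM overlapped between 2C::GFP+/SA (5.58 and 6.09) and 2C::GFP+ (6.15 and 5.98). Pdha1, the catalytic alpha subunit of pyruvate dehydrogenase, fell by 0.56 ± 0.14 on the log2 scale in 2C::GFP+/SA against 2C::GFP+ (adjusted p = 0.00854). The mitochondrial isocitrate dehydrogenase Idh2 fell by 0.74 ± 0.16 (0.0038), the NAD-dependent subunit Idh3a by 0.49 ± 0.13 (0.0126), the succinyl-CoA ligase subunit Sucla2 by 0.46 ± 0.13 (0.0203) and fumarase, Fh1, by 0.63 ± 0.15 (0.00663). None of these 5 calls held in all 13 alternatives, and those of Idh3a and Sucla2 ended with DESeq2. All 5 ended without 2C::GFP+ replicate 1 (adjusted p 0.0552 to 0.130), and those of Pdha1 (0.0859), Idh3a (0.0574), Sucla2 (0.195) and Fh1 (0.0636) also without 2C::GFP+/SA replicate 2. Sucla2 lost its call without 2C::GFP+ replicate 2 as well (0.0592). Pdha1 shares 16.1% of its exon bases with Map3k15 on the opposite strand, and whether the counting used strand is not given in the sources used here. Of the other 8, the largest was Mpc1, a subunit of the mitochondrial pyruvate carrier (-0.85 ± 0.38), which is low (4.76 and 4.66 TPM in 2C::GFP+/SA against 6.50 and 12.1 in 2C::GFP+) and overlaps a noncoding transcript over 23.1% of its exons. Pdhb, Dlat, Cs, Ogdh, Suclg1 and Mdh2 had log2 fold changes between -0.27 and -0.06, and Mpc2, the partner of Mpc1, 0.33 ± 0.19. Cs, citrate synthase, which opens the cycle, had 195 and 217 TPM in 2C::GFP+/SA cells and 245 and 249 in 2C::GFP+. Mdh2, malate dehydrogenase, which closes it, had 291 and 363 TPM in 2C::GFP+/SA cells and 369.8 and 333 in 2C::GFP+, which overlap.

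In this comparison the smallest adjusted p of any member was that of a kinase that inhibits pyruvate dehydrogenase. Pdk1 (chr2:71873224-71903858) had 26.9 and 32.9 TPM in 2C::GFP+/SA cells, 83.0 and 76.9 in 2C::GFP+/SGC cells, 105 and 104.0 in 2C::GFP+ cells, and 75.2 and 81.1 in mESC. The 2C::GFP+/SA values lie below all others and the 2C::GFP+ values above all others. Pdk1 fell by 1.76 ± 0.13 against 2C::GFP+ (adjusted p = 2.23e-06), in all 13 alternatives. Pdk2, with 3.52 and 3.42 TPM in 2C::GFP+/SA cells and 7.96 and 8.75 in 2C::GFP+, fell by 1.18 ± 0.30 (adjusted p = 0.0104), a call that ended without 2C::GFP+/SA replicate 2 (0.0602) or 2C::GFP+ replicate 1 (0.0638). Pdk3 had 45.3 and 57.6 TPM in 2C::GFP+/SA cells, 46.0 and 49.5 in 2C::GFP+/SGC cells, 52.0 and 53.6 in 2C::GFP+ cells, and 41.1 and 40.1 in mESC, with a log2 fold change of 0.00 ± 0.15 against 2C::GFP+. With Pdk1 down and Pdk3 in an overlapping range, Pdk3 made up 59.8% and 61.4% of the summed TPM of the 3 kinases in 2C::GFP+/SA cells, 33.6% and 37.2% in 2C::GFP+/SGC cells, 31.6% and 32.2% in 2C::GFP+ cells, and 34.0% and 31.4% in mESC. Pdk1 made up 35.6% and 35.0% in 2C::GFP+/SA cells and 63.6% and 62.5% in 2C::GFP+.

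**Figure D4:**
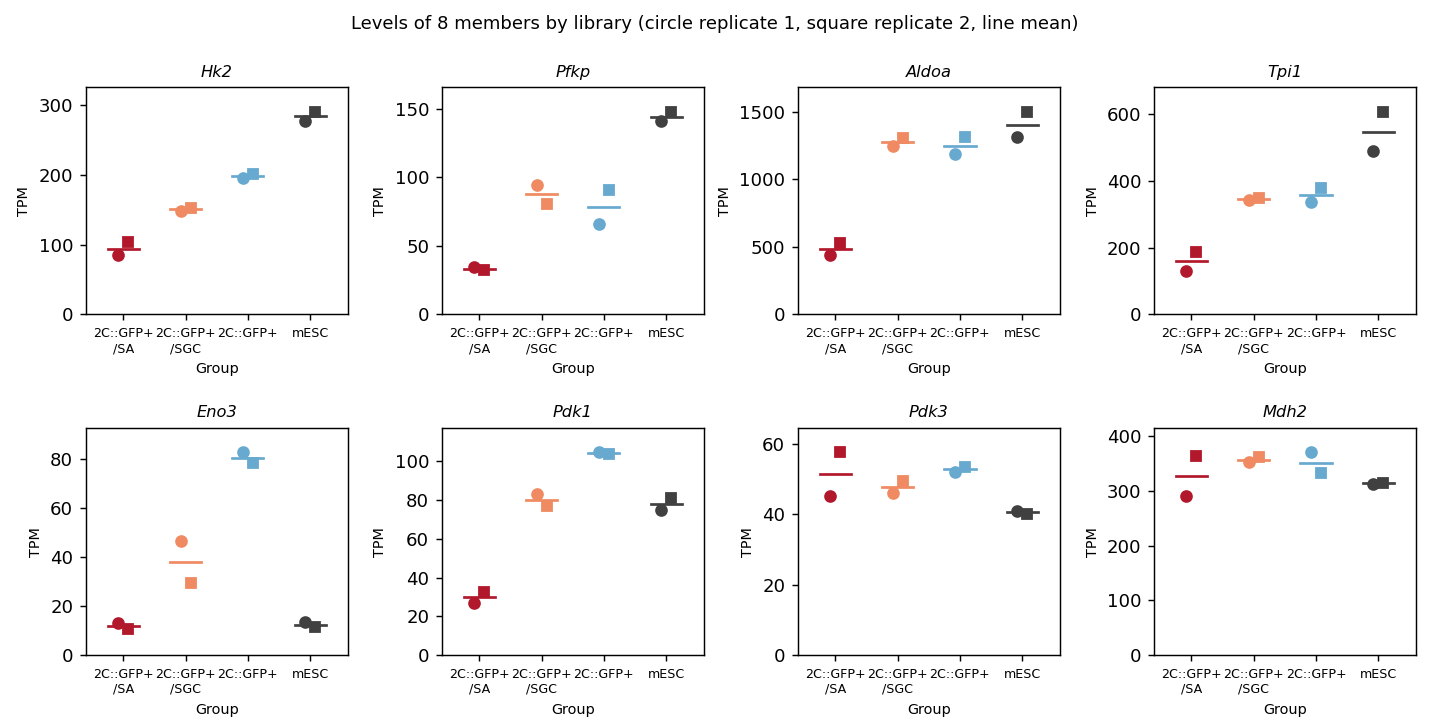
TPM (vertical axes, from 0) of Hk2, Pfkp, Aldoa, Tpi1, Eno3, Pdk1, Pdk3 and the citric acid cycle enzyme Mdh2 in the 4 groups, with a circle for replicate 1, a square for replicate 2 and a line at the mean. The first 4 and Pdk1 are lowest in 2C::GFP+/SA, Eno3 is highest in 2C::GFP+ (82.6 and 78.3), and Pdk3 and Mdh2 overlap between 2C::GFP+/SA and 2C::GFP+.

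Adding AS8351 to SGC0946, with IL6/sIL-6R in place of LIF, was addressed by 2C::GFP+/SA against 2C::GFP+/SGC, in which 10 members fell, none rose and 29 did not pass the test. Over all tested genes 16.1% were called, 8.18% lower and 7.92% higher. In the glycolysis list 8 of 22 fell (median -0.50) and in the mitochondrial list 1 of 13 (median -0.08), beside a median of -0.02 over all tested genes. Aldoa (-1.24 ± 0.12, adjusted p = 4.67e-05), Pdk1 (-1.27 ± 0.12, 5.12e-05), Tpi1 (-0.97 ± 0.13, 0.000266) and Pfkp (-1.21 ± 0.16, 0.000347) fell in all 13 alternatives. Eno3 (-1.48 ± 0.27, adjusted p = 0.0027), Hk2 (-0.52 ± 0.12, 0.00956) and Gpi1 (-0.51 ± 0.12, 0.0110) fell, but without 2C::GFP+/SGC replicate 1 their adjusted p-values were 0.0584, 0.0639 and 0.0829, and Hk2 also missed without 2C::GFP+/SGC replicate 2 (0.0551). The calls of Hk1 (-1.48 ± 0.29, 0.0146), Pgk1 (-0.49 ± 0.13, 0.0215) and Fh1 (-0.53 ± 0.15, 0.0277) ended without 2C::GFP+/SA replicate 2 (0.0878, 0.0637 and 0.232) and without 2C::GFP+/SGC replicate 1 (0.0576, 0.101 and 0.139). Hk1 also missed without mESC replicate 2 (0.103), and Pgk1 and Fh1 without 2C::GFP+/SGC replicate 2 (0.111 and 0.0800). Without 2C::GFP+/SGC replicate 1 the count of members that fell was 4. Some members gained a call when a library was left out: Pdha1 (0.0491) and Idh2 (0.00831) without 2C::GFP+/SA replicate 1, Ldha (0.00191) and Pfkfb3 (0.00429) without replicate 2, and Slc16a3 without mESC replicate 1 (0.0177) or 2 (0.00896), all lower in 2C::GFP+/SA.

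The cells given SGC0946 without AS8351, 2C::GFP+/SGC, had no called gene against 2C::GFP+, whose medium is not given (0% of all tested genes by edgeR, 1.4% or 288 genes by DESeq2, and 2037 genes at an unadjusted p under 0.05). No member passed the test, and the smallest adjusted p among the members was 0.185, for Eno3. At an unadjusted p under 0.05, 8 members were lower and 1 was higher, where 9.88% of all tested genes lay under it, 3.35% lower and 6.53% higher. The log2 fold change was negative for 33 of the 39 members, beside 46.7% of all tested genes. Its median was -0.11 over the glycolysis list and -0.16 over the mitochondrial list, beside 0.03 over all tested genes. All 13 mitochondrial genes were on the negative side, between -0.86 and -0.09. The 8 lower members were Eno3 (-1.18 ± 0.26), Hk2 (-0.50 ± 0.12), Pdk1 (-0.49 ± 0.12), Gapdh (-0.34 ± 0.14), Mpc1 (-0.86 ± 0.37), Pdha1 (-0.31 ± 0.14), Idh2 (-0.36 ± 0.16) and Mdh1 (-0.28 ± 0.13), and the higher one was Eno2 (1.00 ± 0.37). For Hk2, Eno3 and Pdk1 the 2C::GFP+/SGC values listed above lie below both 2C::GFP+ values. Hk2 and Eno3 were called lower by DESeq2 (adjusted p 0.0292 and 0.00236), without the low-count filter (0.0353 and 7.12e-05), with only the 4 libraries compared (0.0363 and 0.00805) and without 2C::GFP+/SA replicate 1 (0.0481 and 0.0362) or replicate 2 (0.0118 and 0.00146), and Pdk1 with only the 4 libraries (0.0493) and without 2C::GFP+/SA replicate 2 (0.0233).

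Untreated 2C::GFP+ cells against mESC showed a mixed pattern, in which 7 members fell, 4 rose and 28 did not pass the test. Over all tested genes 24.3% were called, 9.12% lower and 15.2% higher. In the glycolysis list 7 of 22 fell and 2 rose (median -0.39), and in the mitochondrial list none fell and 1 of 13 rose (median 0.16), beside a median of 0.04 over all tested genes. The count of members that fell was 11 without 2C::GFP+/SA replicate 2. The count that rose was 1 without 2C::GFP+/SGC replicate 2, either 2C::GFP+ library or mESC replicate 1, and 2 without mESC replicate 2. Without mESC replicate 2 the glycolysis median was -0.21.

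All but 1 of the members that fell are in upper glycolysis. Pfkp (-0.90 ± 0.16, adjusted p = 0.00121), Tpi1 (-0.61 ± 0.13, 0.00281) and Hk2 (-0.52 ± 0.12, 0.00511) fell in all 13 alternatives, with the values given above. Aldoc, the brain aldolase, had 17.1 and 18.6 TPM in 2C::GFP+ cells and 33.0 and 45.2 in mESC, without overlap (-1.12 ± 0.19, adjusted p = 0.000619). Eno2 had 1.47 and 2.21 TPM in 2C::GFP+ cells and 5.94 and 12.5 in mESC (-2.34 ± 0.37, adjusted p = 0.000454), while Eno3 went the other way (2.68 ± 0.27, adjusted p = 1.43e-05), and these calls too held in all 13 alternatives. Eno3 made up 8.45% and 8.17% of enolase TPM in 2C::GFP+ cells and 1.47% and 1.25% in mESC, and Eno1 stayed above 91% in all 8 libraries. Hk1 was lower in 2C::GFP+ (-1.22 ± 0.29, adjusted p = 0.0195), but its call ended without 2C::GFP+ replicate 2 (0.163) or mESC replicate 1 (0.0746) or 2 (0.194). Gpi1 was lower (-0.40 ± 0.12, 0.0249), with the call lost without any 1 of the 4 libraries compared (0.0593 to 0.129). Ldhb was not called (-1.89 ± 0.54, adjusted p = 0.0669), although its 458 and 279 TPM in 2C::GFP+ lie far below 1296 and 1469.8 in mESC, and DESeq2 called it (0.00253), as did the test without 2C::GFP+/SGC replicate 1 (0.0134). Slc2a3 (-0.51 ± 0.18), Pgk1 (-0.37 ± 0.13) and Ldha (-0.41 ± 0.19) were not called with all libraries but passed without 2C::GFP+/SA replicate 1 (0.0474, 0.0326 and 0.0316) or replicate 2 (0.0445, 0.0144 and 0.00889). Without mESC replicate 1 Slc2a3 (0.0123) and Pgk1 (0.0279) passed too, and Mdh1 passed without 2C::GFP+/SA replicate 2 (0.0476).

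Of the members that rose in 2C::GFP+ against mESC, only Eno3 kept its call throughout. Slc16a3 had 60.5 and 62.1 TPM in 2C::GFP+ cells and 22.8 and 44.7 in mESC (0.89 ± 0.24, adjusted p = 0.0215), and lost its call without either 2C::GFP+ library (0.118 and 0.154), mESC replicate 1 (0.0710), 2C::GFP+/SA replicate 2 (0.111) or 2C::GFP+/SGC replicate 2 (0.0549). Pdk1 (0.42 ± 0.12, adjusted p = 0.0232) lost its call without any 1 of the 4 libraries compared or 2C::GFP+/SGC replicate 2 (0.0552 to 0.139). Idh2 (0.37 ± 0.16) and the oxoglutarate dehydrogenase gene Ogdh (0.34 ± 0.13) were not called with all libraries but passed without 2C::GFP+/SA replicate 1 (0.0213 and 0.0273) or replicate 2 (0.0391 and 0.0466). Pdhb, the beta subunit of pyruvate dehydrogenase, had 135 and 148 TPM in 2C::GFP+ cells and 109 and 112 in mESC (0.35 ± 0.12, adjusted p = 0.0495), and lost its call in 8 of 13 alternatives, among them leaving out either 2C::GFP+ library, either mESC library, 2C::GFP+/SA replicate 2 or 2C::GFP+/SGC replicate 2 (0.0508 to 0.272).

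Set against mESC, 2C::GFP+/SA showed 19 members lower, 2 higher and 18 that did not pass the test, where 45.1% of all tested genes were called, 20.1% lower and 25% higher. In the glycolysis list 14 of 22 fell and 1 rose (median -0.84), and in the mitochondrial list 3 of 13 fell and 1 rose (median -0.20), beside a median of 0.03 over all tested genes. Tpi1 (-1.75 ± 0.13, adjusted p = 2.41e-07), Hk2 (-1.55 ± 0.12, 3.74e-07), Aldoa (-1.49 ± 0.12, 5.55e-07), Pfkp (-2.05 ± 0.17, 6.3e-07), Pdk1 (-1.34 ± 0.12, 1.69e-06) and Gpi1 (-0.95 ± 0.12, 2.66e-05) fell in all 13 alternatives. Pgk1, Aldoc, Hk1, Eno2, Ldha, Pdha1 and Fh1 also fell in all 13, by 0.80 to 2.74 on the log2 scale. Pfkl, Pgam1, Eno1, Ldhb, Idh3a and Mdh1 fell with calls that single libraries decided: Pfkl missed without mESC replicate 2 (0.0985) and Mdh1 without mESC replicate 1 (0.0558). Ldhb and Idh3a missed without 2C::GFP+/SA replicate 2 (0.106 and 0.0532) or mESC replicate 2 (0.0850 and 0.169). Eno1 missed without 2C::GFP+/SA replicate 1 (0.104) or mESC replicate 1 (0.147), and Pgam1 without 2C::GFP+/SA replicate 1 (0.146), 2C::GFP+/SGC replicate 1 (0.0552), mESC replicate 1 (0.0692) or 2 (0.148). Gapdh (0.0205) and Idh2 (0.00295) were called lower without 2C::GFP+/SA replicate 1, and Pfkfb3 lower (0.000953) and Ogdh higher (0.0336) without replicate 2. Slc16a3 was called higher without mESC replicate 2 (0.0106), and Pdk3 higher without 2C::GFP+/SGC replicate 1 (0.0392) or 2C::GFP+ replicate 1 (0.0428). Slc2a1 rose (0.61 ± 0.12, adjusted p = 0.00111), in all 13 alternatives. Mpc2, with 8.36 and 9.51 TPM in 2C::GFP+/SA cells and 6.07 and 6.13 in mESC, rose by 0.60 ± 0.19 (0.0216) but missed without 2C::GFP+/SA replicate 1 (0.0768) or mESC replicate 1 (0.0541) or 2 (0.131). The comparisons of 2C::GFP+/SA with mESC, 2C::GFP+/SGC and 2C::GFP+ share the 2C::GFP+/SA libraries, and those that contain 2C::GFP+ share that group's libraries.

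The share of each isozyme among the members of its family was read next. Ldha made up 62.4% and 81.3% of lactate dehydrogenase TPM in 2C::GFP+/SA cells, 60.9% and 77.9% in 2C::GFP+/SGC cells, 64.5% and 75.1% in 2C::GFP+ cells, and 41.3% and 47.4% in mESC. All 6 reporter libraries lie above both mESC libraries, while within each reporter group replicate 2 had the higher share. Pfkp made up 19.1% and 16.9% of phosphofructokinase TPM in 2C::GFP+/SA cells, 28.3% and 29.5% in 2C::GFP+/SGC cells, 20.9% and 30.3% in 2C::GFP+ cells, and 38.3% and 36.7% in mESC. Pfkl made up 44.9% and 58.4% in 2C::GFP+/SA cells, 41.3% and 47.3% in 2C::GFP+/SGC cells, 41.2% and 43.1% in 2C::GFP+ cells, and 32.9% and 40.5% in mESC. Pfkl was thus the largest of the 3 in every library but mESC replicate 1, where Pfkp was. Hk2 was the larger part of hexokinase TPM in all 8 libraries, at 77.1% to 90.9%.

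**Figure D5:**
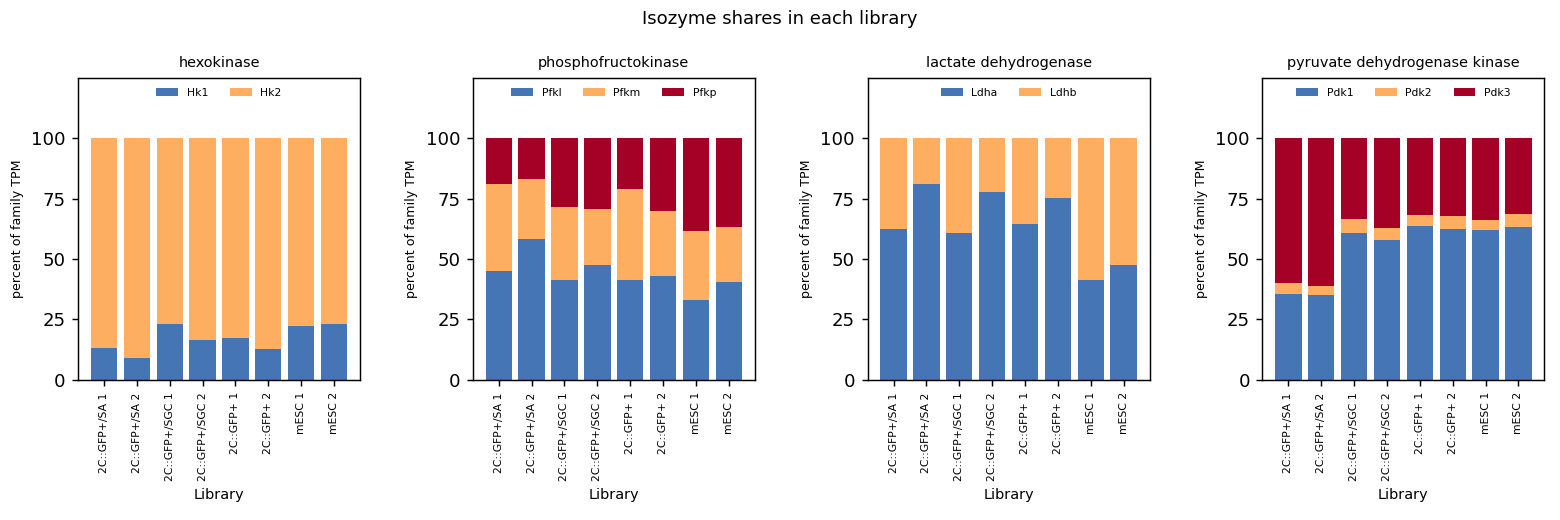
Share of each isozyme in the summed TPM of the members of its family (vertical axes, percent) in each of the 8 libraries. The families are hexokinase, phosphofructokinase, lactate dehydrogenase and pyruvate dehydrogenase kinase. Isozymes that are not members, such as Pdk4 (14.1 and 15.8 CPM in 2C::GFP+/SA), are left out. Pdk3 is the largest kinase share only in the 2C::GFP+/SA libraries (59.8% and 61.4%), and Ldhb exceeds Ldha only in the mESC libraries.

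Other genes around the pathway were taken from lists of 30 glycolysis and gluconeogenesis genes, 28 pyruvate dehydrogenase and citric acid cycle genes, 8 pentose phosphate genes and 23 hypoxia and iron response genes. In 2C::GFP+/SA against 2C::GFP+, 4 of the 24 tested genes of the first list rose and 3 fell. That is 29.2% of the list, close to the 28.7% called over all tested genes, so only single genes are described. Fructose bisphosphatases, which run the phosphofructokinase step backwards for gluconeogenesis, were among the risers: Fbp2 had 51.0 and 56.1 TPM in 2C::GFP+/SA cells, 8.03 and 9.10 in 2C::GFP+/SGC cells, 7.66 and 9.92 in 2C::GFP+ cells, and 3.08 and 2.18 in mESC (2.69 ± 0.28 against 2C::GFP+, adjusted p = 2.34e-05). Fbp1 rose by 2.34 ± 0.53 (0.00488) from low levels. Pcx, pyruvate carboxylase, which makes oxaloacetate from pyruvate, had 74.0 and 81.1 TPM in 2C::GFP+/SA cells, 31.4 and 30.3 in 2C::GFP+/SGC cells, 40.6 and 34.3 in 2C::GFP+ cells, and 27.9 and 26.8 in mESC (1.10 ± 0.16, 0.000213). Both Fbp2 and Pcx are highest in 2C::GFP+/SA without overlap. The fourth riser, Pgk2, the testis form of phosphoglycerate kinase, had only 21 and 4 counts in 2C::GFP+/SA and none in 2C::GFP+, at least 10.9-fold higher against 3 counts over that group. Its call ended without 2C::GFP+ replicate 2 (0.0679). G6pc3, Pck2 and Slc2a8 fell, by 1.13, 0.94 and 0.52 on the log2 scale. The call of Slc2a8 ended without any 1 of the 8 libraries (0.0581 to 0.254), and that of Pck2 without any 1 of the 6 libraries outside 2C::GFP+/SA (0.0572 to 0.245).

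Of the 27 tested genes of the second list 1 rose and 7 fell in 2C::GFP+/SA against 2C::GFP+, which is 29.6% of the list beside 28.7% of all tested genes. The aspartate-glutamate carrier Slc25a13 (-1.68 ± 0.15, adjusted p = 8.63e-06), ATP citrate lyase, Acly (-0.75 ± 0.13, 0.000752), the citrate carrier Slc25a1 (-0.73 ± 0.13, 0.000984) and Suclg2 (-0.53 ± 0.12, 0.00566) fell. The riser was Pdk4 (0.85 ± 0.30, 0.0495), whose call ended without either 2C::GFP+/SA library, either 2C::GFP+ library or 2C::GFP+/SGC replicate 1 (0.0645 to 0.275). In the pentose phosphate list 3 of 8 fell and none rose, where 13.8% of all tested genes fell and 14.9% rose: H6pd, with 6.22 and 8.31 TPM in 2C::GFP+/SA cells and 28.3 and 28.5 in 2C::GFP+ (-1.93 ± 0.17, 7.4e-06), transketolase, Tkt, with 129 and 115 TPM in 2C::GFP+/SA cells and 340.5 and 323 in 2C::GFP+ (-1.37 ± 0.16, 5.82e-05), and Pgd (-0.87 ± 0.16, 0.0016).

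The hypoxia and iron response list was read because AS8351 is also described as an iron chelator and many glycolysis genes are targets of hypoxia-inducible factors. In 2C::GFP+/SA against 2C::GFP+, 12 of its 23 genes fell and 2 rose, where 13.8% of all tested genes fell and 14.9% rose. In 2C::GFP+ against mESC 9 of the 23 rose and 2 fell, where 15.2% of all tested genes rose and 9.12% fell. In 2C::GFP+/SA against mESC 5 fell and 4 rose, 39.1% of the list beside 45.1% of all tested genes. In 2C::GFP+/SA against 2C::GFP+/SGC 7 fell and 2 rose, 39.1% of the list beside 16.1% of all tested genes. The 2C::GFP+ libraries differ on some of these genes. Bnip3 had 14.7 and 26.9 CPM there, 7.77 and 8.09 in 2C::GFP+/SA and 8.01 and 9.19 in mESC. Mxi1 had 32.6 and 29.7 CPM in 2C::GFP+, 12.9 and 12.2 in 2C::GFP+/SA and 25.2 and 26.9 in mESC. Mxi1 (-1.31 ± 0.17, adjusted p = 9.86e-05), the prolyl hydroxylase Egln1 (-1.25 ± 0.22, 0.00108), Bnip3 (-1.38 ± 0.29, 0.00311) and the transferrin receptor Tfrc (-0.65 ± 0.14, 0.00418) fell in 2C::GFP+/SA against 2C::GFP+. The call of Tfrc ended without 2C::GFP+ replicate 1 (0.0515). The risers were Ddit4, an mTOR inhibitor gene, with 432 and 434 TPM in 2C::GFP+/SA cells and 74.7 and 118 in 2C::GFP+ (2.26 ± 0.22, 6.89e-05), and the collagen prolyl hydroxylase P4ha2 (4.09 ± 0.54, 0.0052), whose call ended without 2C::GFP+ replicate 2 (0.0856). The level of Hif1a itself was 61.3 and 77.5 TPM in 2C::GFP+/SA cells and 68.9 and 63.3 in 2C::GFP+, which overlap. Epas1, also in this list, did not overlap, with 152 and 161 CPM in 2C::GFP+/SA cells against 255 and 230 in 2C::GFP+. It had 183 and 144 CPM in 2C::GFP+/SGC cells and 95.7 and 77.6 in mESC. These are RNA levels only.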

How the data were processed

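The authors deposited a table of raw read counts and a table of TPM values per gene for the 8 libraries. Per the submitters' processing notes, the tools were STAR 2.7.4a, featureCounts 2.0.0, Trim Galore 0.6.5, FastQC 0.11.9 and Cell Ranger (role not stated), with mm10 and GRCm38 as builds; annotation, strand setting and multiply mapped reads: not given in the sources used here. Symbols and coordinates come from GENCODE M21 (GRCm38).

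Counts were scaled by TMM and tested in edgeR 4.0.16 (robust quasi-likelihood F test, R 4.3.3) with 1 term per group over all 8 libraries. filterByExpr kept 20608 genes, two-sided p-values were Benjamini-Hochberg adjusted over them in each comparison, and genes with adjusted p under 0.05 were called. SE is the absolute log2 fold change over the square root of F. The test was checked on simulated counts. DESeq2 1.42.0 was an alternative.

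Library values are given for up to 6 called members per comparison and direction with the smallest adjusted p. From other lists they are given for up to 4 called genes per direction. Library values of further members, and of Hif1a and Epas1, were chosen after values were seen. Members and lists were chosen with earlier results of these data known. TPM lists, sums and shares were not tested. All columns were used, and the totipotent-like stem cells named in the design text are not analysed here. Library depth limits precision: a count of 0 allows up to 0.0206 CPM in the deepest and 0.244 CPM in the shallowest library.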

Additional observations from a re-analysis of the deposited data

How the results depend on the processing

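Each result was recomputed under 13 alternatives: DESeq2 size factors and test, no low-count filter, only the 4 libraries compared, a replicate block, replicate 1 thinned to the depth of replicate 2, and 8 fits that leave out 1 library. No called member and no called gene of the other lists changed sign. The signs of further called genes were not checked. Of 325 recomputed counts and medians 279 stayed within 1.5 times the reported count or within 1 SD between replicates of the reported median (SD of the mean log2 CPM 0.0961 for the glycolysis and 0.0732 for the mitochondrial list). In 2C::GFP+/SGC against 2C::GFP+ the calls of all genes were 288 with DESeq2, 499 without the filter and 326 with only the 4 libraries, and members lower were 2, 2 and 3. Members higher in 2C::GFP+/SA against 2C::GFP+/SGC became 1 with DESeq2, and calls of all genes there 2210 with only the 4 libraries. With DESeq2 the mitochondrial median was -0.19 in 2C::GFP+/SA against 2C::GFP+ and -0.11 against mESC. The cause of these shifts was not tested.

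Leaving out 1 library gave these ranges. For 2C::GFP+ against mESC: 2872 to 5869 calls, 1 to 6 members higher, 5 to 11 lower, glycolysis median -0.43 to -0.21. For 2C::GFP+/SGC against 2C::GFP+: 0 to 431 calls, 0 to 3 members lower. For 2C::GFP+/SA against 2C::GFP+: 2890 to 5861 calls, 0 to 1 members higher, 9 to 18 lower, glycolysis median -0.58 to -0.36. For 2C::GFP+/SA against 2C::GFP+/SGC: 1207 to 3324 calls, 4 to 12 members lower, glycolysis median -0.51 to -0.38, mitochondrial median -0.17 to -0.052. For 2C::GFP+/SA against mESC: 1 to 3 members higher, mitochondrial median -0.27 to -0.11. With 2 libraries a group, the remaining one is assumed to vary like the other groups.

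The labels do not say what libraries of the same replicate number share. Deviations of same-numbered libraries correlated at 0.0411 to 0.142 over genes, all on the positive side, and depth moves with the number. With the replicate block, 284 genes and 3 members (Hk2, Eno3 and Pdk1, all lower) were called in 2C::GFP+/SGC against 2C::GFP+. It also called Pfkm (adjusted p = 0.000309) and Gapdh (0.0491) lower in 2C::GFP+/SA against 2C::GFP+, where Slc16a3 lost its call (0.0639). Among members and called genes of the other lists, the block added 3 calls in 2C::GFP+ against mESC. It added 1 in 2C::GFP+/SA against 2C::GFP+/SGC and 4 in 2C::GFP+/SA against mESC, where 1 call was lost.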
